A study of Mus musculus with 6 samples.

Results

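Glucocorticoid receptors and glucocorticoid-responsive genes were followed as 10 named genes in the amygdala of mice taken 2 h after fear extinction training. The genes were the receptor genes Nr3c1 and Nr3c2 and 8 genes known to respond to the hormone: Fkbp5, Sgk1, Tsc22d3, Ddit4, Zbtb16, Errfi1, Plin4 and Cdkn1a. Every probe set with 1 of these symbols in the platform annotation was taken, which gave 24 of the 45101 probe sets in the table. A probe set is the group of short probes that an array sums into 1 value, and 18 of the 24 reached the mean log2 level of 4 required for testing. All 10 genes had at least 1 tested probe set. The members were not picked by a cut on their values, but they were chosen with earlier results of these data known.

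The 6 mice were male, of the inbred strain 129S1/SvImJ (S1), 8 to 10 weeks old, and all had received extinction training. The labels give 3 of them a zinc diet (replicates 3, 7 and 10) and the other 3 a control diet (replicates 1, 9 and 11), with 1 array of dissected amygdala per mouse. No allele or drug is listed for either group. The labels write the zinc diet as Zn or ZnR and do not give its zinc content. The name zinc diet is used here without saying whether zinc was added or reduced. No untrained mice were analysed here, and no hormone level was analysed here. S1 mice are known for impaired fear extinction, and the question addressed is whether transcript levels in the trained amygdala differ with the diet.

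Glucocorticoid hormone, corticosterone in mice, is released from the adrenal gland under stress and crosses into the brain. There it binds the mineralocorticoid receptor, which already holds hormone at rest, and the glucocorticoid receptor, which fills when levels are high. Both receptors then enter the nucleus and act on DNA, and the transcripts of direct targets change within hours. The amygdala carries both receptors, and the hormone is known to shape how fear memories are stored and extinguished there.

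The arrays were alike in level, with medians of log2 values between 4.04 and 4.09. All 5 neuronal and all 7 amygdala markers passed the filter on level. Markers of other cells and regions differed between mice. The 8 striatal neuron markers tested averaged 8.21 to 8.54 in control mice and 9.45 to 9.81 in zinc diet mice. The 9 myelin markers tested of 10 averaged 8.96 to 9.58 and 9.45 to 10.18, and the 4 choroid plexus markers tested of 9 stood at 9.28 in control replicate 9 and at 5.62 to 6.56 in the other mice. In a bulk sample, fewer cells of a type and less RNA per cell cannot be told apart.

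The response element of both receptors is a pair of 6-base elements that face each other across 3 bases, written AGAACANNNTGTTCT. It was searched in the 250 bases before annotated transcript starts in the RefSeq promoter table of GRCm38.p6. Starts on 1 chromosome were left out of the search and of all counts of windows. The short element alone, AGAACA or TGTTCT, which covers both strands, was searched in the same windows. Every full element holds both short ones. The full element reads the same on both strands. It occurred in 3 of 32851 windows (0.00913%), and 1 of the 3 was a window of Sgk1. The short element occurred in 5284 windows (16.1%). Of the members, 8 had windows among those searched, 17 in all, and Nr3c1 and Zbtb16 had none. A short element was held by 4 of the 17 (23.5%), all of them windows of Sgk1 or Tsc22d3. Sgk1 had more windows than any other member, so this share counts windows and not genes. Among 38 windows of other genes listed as glucocorticoid-responsive, 0 held the full element and 4 (10.5%) a short one. The Sgk1 window with the full element and the Tsc22d3 window with a short element are shown because these genes gave the highest correlation across mice among the pairs for which one is given. Capitals mark the matches, and the full element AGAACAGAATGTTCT begins 189 bases before that Sgk1 start.
Sgk1, chr10:21993640-21993889, plus strand: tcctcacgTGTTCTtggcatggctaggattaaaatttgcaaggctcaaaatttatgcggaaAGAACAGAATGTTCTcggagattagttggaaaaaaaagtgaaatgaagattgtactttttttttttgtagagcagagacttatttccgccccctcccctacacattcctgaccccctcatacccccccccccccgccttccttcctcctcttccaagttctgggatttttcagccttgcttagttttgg
Tsc22d3, chrX:140600523-140600772, minus strand: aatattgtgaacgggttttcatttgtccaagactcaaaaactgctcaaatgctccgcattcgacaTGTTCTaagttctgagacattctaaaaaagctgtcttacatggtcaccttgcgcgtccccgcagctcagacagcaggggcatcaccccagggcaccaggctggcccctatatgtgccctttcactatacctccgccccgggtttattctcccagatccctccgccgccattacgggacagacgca
The Fkbp5, Plin4, Ddit4, Errfi1, Cdkn1a and Nr3c2 windows held neither form in these 250 bases. A match describes letters only and does not show that a receptor binds there. Only exact matches in these bases were searched, so no match does not show that a gene lacks a response element.

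No receptor probe set passed the test between the diets. Nr3c1, the glucocorticoid receptor gene, had 3 tested probe sets of 6. On the brightest of them (1460303_at) its log2 level was 10.30, 10.21 and 10.15 in control replicates 1, 9 and 11. It was 10.38, 10.50 and 10.35 in zinc diet replicates 3, 7 and 10. All 3 zinc diet mice therefore lay above all 3 control mice on this probe set, as they did on 6.66% of all probe sets tested, with group means of 10.41 ± 0.079 and 10.22 ± 0.075 (SD, n = 3 each). The difference was 0.18 ± 0.081 (SE) on the log2 scale or 1.14-fold, with a 95% confidence interval of -0.01 to 0.38. It did not pass in limma (adjusted p = 0.79 over all probe sets tested). The 8 striatal markers also had diets that did not overlap, as did 4 of the 7 amygdala markers: Rspo2 (0.77), Neurod6 (0.67) and Cyp26b1 (0.33) were higher and Lmo3 (-0.43) lower in zinc diet mice. The amygdala markers averaged 8.43 to 8.51 in control and 8.66 to 8.83 in zinc diet mice. The part of the dissected regions in the Nr3c1 difference was not tested. The diets overlapped on the other two tested probe sets, 1421867_at (0.07 ± 0.11 SE) and 1457635_s_at (0.12 ± 0.14 SE).

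The 3 Nr3c1 probe sets below the filter had means of 3.26 to 3.93. One of them, 1453860_s_at, stood at 5.31 in zinc diet replicate 3 and at 3.20 to 4.17 in the other 5 mice. This 1 high value was not matched on the 3 tested probe sets, where zinc diet replicate 3 was never the highest mouse. Without detection calls, values this low cannot be told from background.

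Nr3c2 encodes the mineralocorticoid receptor and had 1 probe set. Its log2 level was 8.84, 9.07 and 8.89 in control replicates 1, 9 and 11, and 8.85, 8.87 and 8.87 in zinc diet replicates 3, 7 and 10. Control replicate 9 was the 1 mouse that stood apart, and the other 5 lay within 8.84 to 8.89. The difference was -0.07 ± 0.085 (SE), and it was 0.00 without that mouse.

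**Figure D1:**
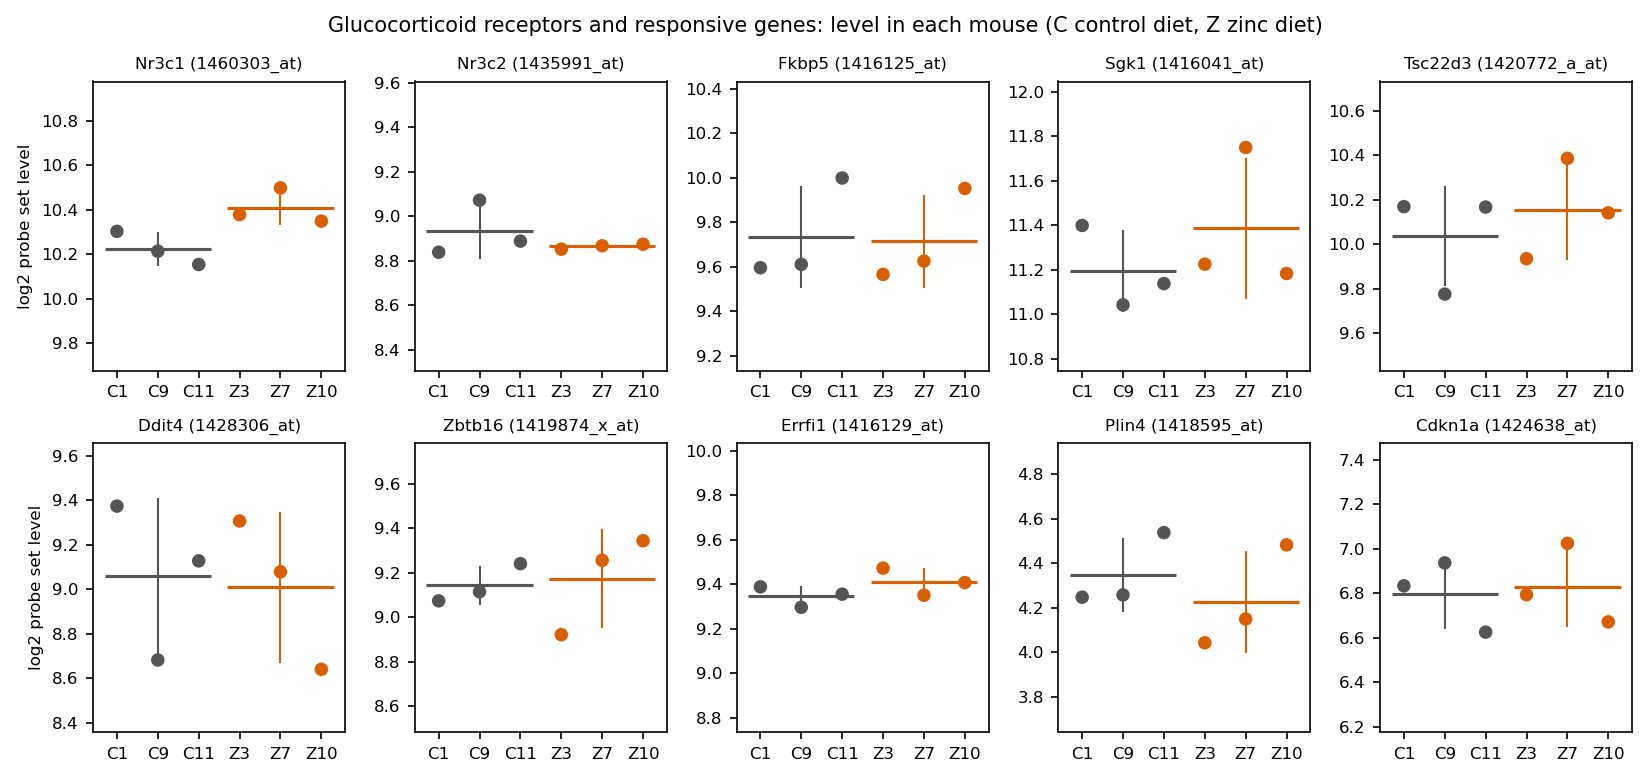
Log2 level of the brightest probe set of each member in every mouse, with control diet mice in grey (C) and zinc diet mice in orange (Z), numbered by replicate. Horizontal lines are group means, vertical lines are ± 1 SD (n = 3), and every panel spans 1.3 log2 units. Fkbp5 and Plin4 are highest in C11 and Z10, and Sgk1 and Tsc22d3 are highest in Z7 and lowest in C9.

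Fkbp5 encodes a co-chaperone of HSP90 that lowers the hormone affinity of the receptor and is itself strongly induced by it, a short feedback loop. On its tested probe set (1416125_at) the log2 level was 9.60, 9.61 and 10.00 in control replicates 1, 9 and 11. In zinc diet replicates 3, 7 and 10 it was 9.57, 9.62 and 9.95. The mice fell into 4 low and 2 high ones, with 1 of the high mice in each diet. The low mice lay within 9.57 to 9.62 and the gap to the high mice was 0.33, which is 0.754 of the whole range. The diet means were 9.73 ± 0.23 and 9.71 ± 0.21 (SD, n = 3), a difference of -0.02 ± 0.15 (SE, limma adjusted p = 0.99). The 2 probe sets of Fkbp5 below the filter lay at 3.53 to 4.03 (1448231_at) and 1.63 to 2.07 (1447736_at). The dimmer one was lower in all 3 zinc diet mice, at a level where differences cannot be read. On the tested probe set, leaving out a high mouse moved the difference, to -0.14 with zinc diet replicate 10 left out and to 0.11 with control replicate 11 left out.

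Plin4 encodes perilipin 4, a protein that coats lipid droplets. Its 1 probe set had a mean log2 level of 4.29, close to the filter, so the size of its differences is uncertain. It was 4.25, 4.26 and 4.54 in control replicates 1, 9 and 11, and 4.04, 4.15 and 4.48 in zinc diet replicates 3, 7 and 10. The highest mice were again control replicate 11 and zinc diet replicate 10. The diet difference was -0.12 ± 0.14 (SE), and the diets overlapped.

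Zbtb16 encodes PLZF, a zinc finger repressor of transcription. Its brightest probe set (1419874_x_at, of a design that can match related transcripts) had log2 levels of 9.07, 9.11 and 9.24 in control replicates 1, 9 and 11. In zinc diet replicates 3, 7 and 10 they were 8.92, 9.26 and 9.34. The second (1439163_at) was at 7.89, 7.95 and 8.46 in the control mice and at 7.64, 8.19 and 8.17 in the zinc diet mice. Both were lowest in zinc diet replicate 3, followed by control replicates 1 and 9, and differed in the order of the other 3 mice. Probe set 1427638_at ran the other way: it was lowest in control replicate 11 (4.32) and zinc diet replicate 10 (4.44), against 4.63 to 5.08 in the other 4 mice. The 3 diet differences were 0.03 ± 0.12, -0.10 ± 0.21 and -0.15 ± 0.21 (SE), with the diets overlapping on each. For 1427638_at, the difference was -0.37 without control replicate 11 (limma unadjusted p = 0.032) and 0.005 without control replicate 1.

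Control replicate 11 and zinc diet replicate 10 were the highest 2 mice on 2 of the 18 member probe sets tested, those of Fkbp5 and Plin4. They held that place on 7.80% of all 22877 probe sets tested. A measure of RNA quality moved with this split. The Actb control probe sets gave a 3′ minus 5′ difference of 0.94 and 0.90 log2 units in these 2 mice and 0.75 to 0.79 in the other 4. The Gapdh control pair did not separate them, at -0.065 and -0.12 against -0.18 to -0.044. The part of RNA quality in the Fkbp5 and Plin4 values was not tested. These mice also carry neighbouring replicate numbers in the labels, whose meaning is not given there. Control replicate 9, which neighbours zinc diet replicate 10 as well, was among the other 4 mice. Among the 11220 other named genes tested, those most like Fkbp5 over the 6 arrays were Capza2, Camk1g, Irf2bp1, Iqsec2 and Smyd5, with Pearson r between 0.981 and 0.988. Each of them was highest in the same 2 mice: Camk1g, a calmodulin-dependent kinase gene, was at 7.70 and 7.58 in them. In control replicate 1 it was at 7.14.

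Sgk1 encodes serum- and glucocorticoid-regulated kinase 1, which acts on ion channels and transporters. Its log2 level (1416041_at) was 11.40, 11.04 and 11.14 in control replicates 1, 9 and 11, and 11.23, 11.75 and 11.18 in zinc diet replicates 3, 7 and 10. Zinc diet replicate 7 stood highest and control replicate 9 lowest, with the diets overlapping. The diet difference of 0.19 ± 0.17 (SE), or 1.14-fold, was the highest among the member probe sets and did not pass in limma (adjusted p = 0.90). Leaving out zinc diet replicate 7 brought it to 0.01, and leaving out control replicate 1 to 0.30.

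Tsc22d3 encodes GILZ, a leucine zipper protein that restrains inflammatory signalling, and had 3 tested probe sets of 4. On the brightest (1420772_a_at) the log2 level was 10.17, 9.78 and 10.17 in control replicates 1, 9 and 11. In zinc diet replicates 3, 7 and 10 it was 9.93, 10.39 and 10.14. As with Sgk1, zinc diet replicate 7 was highest and control replicate 9 lowest. The other two, 1425281_a_at and 1425557_x_at, were also highest in zinc diet replicate 7, at 8.98 and 5.14, but lowest in zinc diet replicate 3, at 8.55 and 4.75. The diet differences were 0.12 ± 0.16, 0.03 ± 0.13 and -0.01 ± 0.13 (SE), and the diets overlapped on each. The first was -0.01 without control replicate 9. The probe set below the filter (1444365_at) lay at 2.64 to 2.95.

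Myelin markers had the same highest and lowest mouse as Sgk1 and Tsc22d3. All 9 tested markers were highest in zinc diet replicate 7 and lowest in control replicate 9, a place shared by 4.43% of all probe sets tested. Their mean log2 level was 10.18 in zinc diet replicate 7, 8.96 in control replicate 9 and 9.36 to 9.58 in the other 4 mice. Mog, a myelin surface protein gene, was at 7.85 in zinc diet replicate 7 and at 5.91 in control replicate 9. Of the 8 striatal markers tested, 7 were also highest in zinc diet replicate 7, and 2 of these were lowest in control replicate 9. Control replicate 9 was also the mouse with the high choroid plexus markers. The part of oligodendrocyte, striatal or choroid plexus RNA in the Sgk1 and Tsc22d3 values was not tested.

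**Figure D2:**
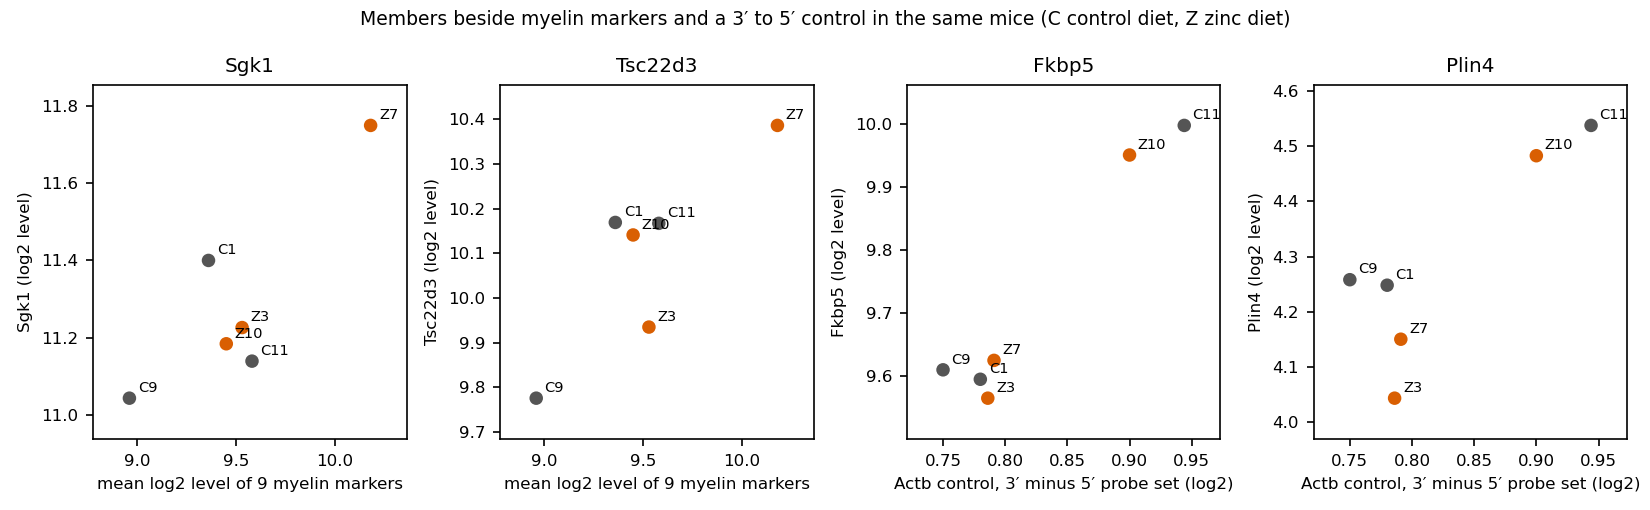
Levels of 4 members in each mouse (y axes, log2 level) against the mean log2 level of 9 myelin markers (Sgk1 and Tsc22d3) or the Actb 3′ minus 5′ difference in log2 units (Fkbp5 and Plin4), with control diet mice in grey (C) and zinc diet mice in orange (Z). Z7 lies at the top right and C9 at the bottom left of the first 2 panels, and C11 and Z10 lie apart from the other 4 mice in the last 2.

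Ddit4, Errfi1 and Cdkn1a did not share both their highest and their lowest mice with either pair of genes. Ddit4 encodes REDD1, an inhibitor of the mTORC1 growth pathway, and varied most among the brightest probe sets of the members, over 0.73 log2 units. It was at 9.37, 8.68 and 9.13 in control replicates 1, 9 and 11 and at 9.31, 9.08 and 8.64 in zinc diet replicates 3, 7 and 10. Control replicate 9 and zinc diet replicate 10 were low, 1 in each diet, and the diet difference was -0.05 ± 0.23 (SE). Leaving out zinc diet replicate 10 gave 0.13, and leaving out control replicate 9 gave -0.24.

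Errfi1 encodes MIG6, a feedback inhibitor of the epidermal growth factor receptor. Its brighter probe set (1416129_at) varied least, between 9.30 in control replicate 9 and 9.47 in zinc diet replicate 3. The diet difference was 0.06 ± 0.073 (SE), with a 95% interval of -0.11 to 0.24. The second probe set (1419816_s_at) lay between 5.77 and 6.20 and gave 0.14 ± 0.13 (SE). Both ranges overlapped between diets.

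Cdkn1a encodes p21, an inhibitor of the cell cycle kinases. On its brighter probe set (1424638_at) the log2 level was 6.83, 6.94 and 6.63 in control replicates 1, 9 and 11, and 6.79, 7.02 and 6.67 in zinc diet replicates 3, 7 and 10. It was lowest in control replicate 11 and zinc diet replicate 10, the mice in which Fkbp5 was highest. The diet difference was 0.03 ± 0.12 (SE), and the second probe set gave 0.08 ± 0.095 (SE).

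Over the 18 member probe sets tested, 0 passed an adjusted p of 0.05 in limma, as did 0% of all 22877 probe sets tested. At an unadjusted p under 0.05 there were 0 members, against 6.38% of all probe sets (1460). With zinc diet replicate 7 left out that overall count was 853, and with control replicate 1 left out it was 2241. Of the member differences, 11 were above 0 and 7 below, and their median was 0.03, against 0.0091 for all probe sets. The diets did not overlap on 1 of the 18, Nr3c1 1460303_at, with zinc diet mice higher, against 6.66% of all probe sets tested. No tested member probe set was lower in all zinc diet mice, against 5.33% of all. The precision differed between members: the 95% intervals reached 0.174 to either side of the estimate for Errfi1 1416129_at, the narrowest, and 0.538 for Ddit4, the widest.

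**Figure D3:**
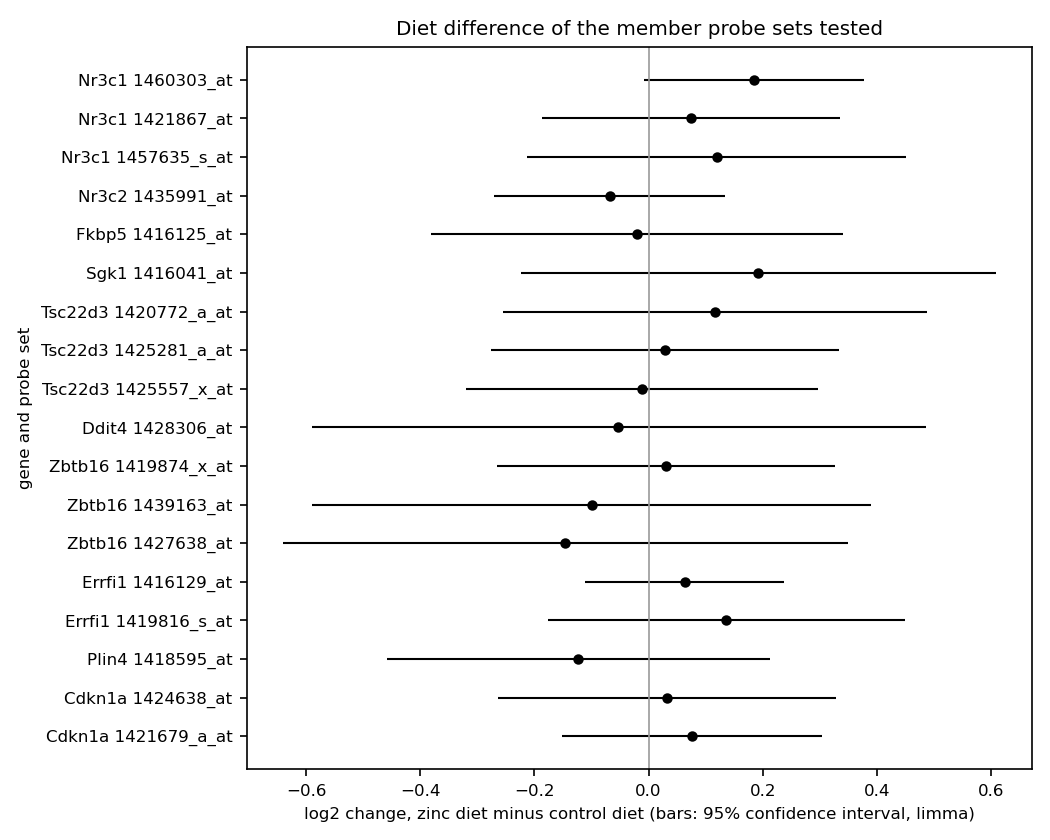
Log2 change (zinc diet minus control diet) of the 18 member probe sets tested, with 95% confidence intervals from limma (3 mice per diet). Every interval includes 0, and the estimates run from -0.15 for Zbtb16 1427638_at to 0.19 for Sgk1.

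Co-variation across mice was examined because genes driven by 1 circulating hormone could move together from mouse to mouse. The brightest probe set of each of the 8 responsive genes was used, which gave 28 pairs. For Fkbp5, Plin4 and Ddit4 the 6 mice fell into separate sets, with a gap over 0.4 of the range and at least 2 mice on each side, so no correlation is given for pairs that hold them. Of the remaining 10 pairs, 7 had a Pearson r above 0, and r ran from -0.41 (Zbtb16 and Errfi1) to 0.80 (Sgk1 and Tsc22d3) with a median of 0.047. With values centred within each diet the median was -0.076. The 5 genes of these 10 pairs therefore did not share 1 order of mice. The rule that left out the other pairs was set after the values were seen.

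Sgk1 and Tsc22d3 gave the highest r of these pairs, 0.80 over 6 mice (two-sided exact permutation p = 0.062, adjusted p = 0.58 over the 28 pairs). Spearman's rho was 0.77 (exact permutation p = 0.10, adjusted p = 0.72). Centred within diet, r was 0.78. Without the 2 mice farthest from the Sgk1 median it was 0.51, and without zinc diet replicate 7 alone it was 0.60. Sgk1 and Cdkn1a gave r = 0.59 (exact permutation p = 0.22, adjusted p = 0.78) and rho = 0.43 (exact permutation p = 0.42, adjusted p = 0.84). That relation rests on 2 mice, since r was -0.55 without those farthest from the Sgk1 median. Tsc22d3 and Zbtb16 gave r = 0.55 (exact permutation p = 0.26, adjusted p = 0.80) and rho = 0.31 (exact permutation p = 0.56, adjusted p = 0.84), with r = 0.74 without the 2 mice farthest from the Tsc22d3 median. Of all 28 pairs, 0 passed an adjusted exact permutation p of 0.05, and 1 had an unadjusted p under it. That pair was Fkbp5 and Plin4, for which no correlation is given because the mice fell into separate sets on both genes.

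**Figure D4:**
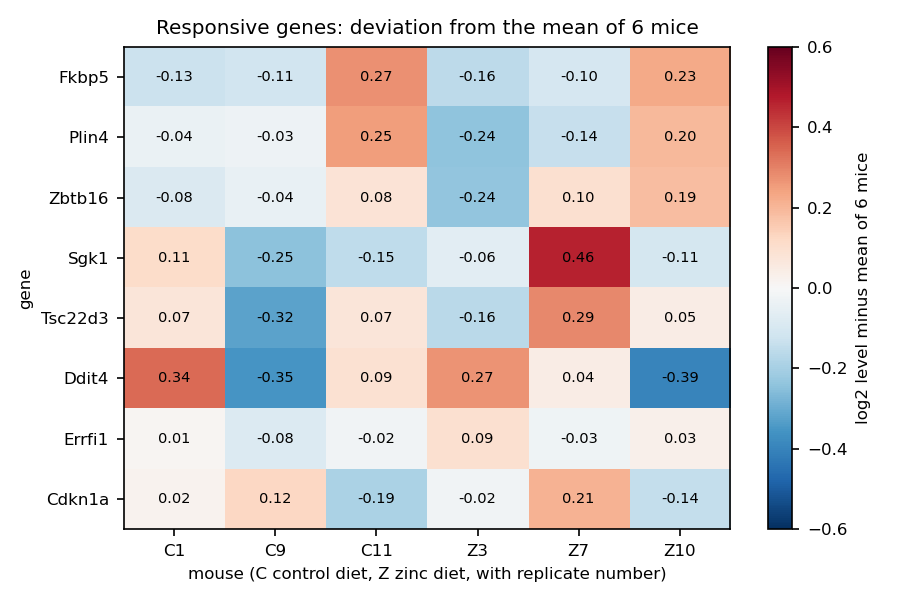
Log2 level of each responsive gene (rows, brightest probe set) minus its mean over the 6 mice, for each mouse (columns, C control diet and Z zinc diet with replicate number), with red above and blue below the mean. Fkbp5 and Plin4 are high in C11 and Z10, Sgk1 and Tsc22d3 are high in Z7 and low in C9, and Ddit4 is low in C9 and Z10.

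Other genes of the pathway were described from lists, with the brightest probe set of each gene. Among 29 tested genes of 34 listed as glucocorticoid-responsive, 12 were higher and 17 lower in zinc diet mice, with a median log2 change of -0.02. In limma, 0 of the 29 reached an adjusted p of 0.05 and 1 reached an unadjusted p of 0.05, against 6.38% of all probe sets tested. Diets did not overlap for 4 of the 29, Klf9 with zinc diet mice higher and Klf15, Mt2 and Cebpd with them lower, against 6.66% and 5.33% of all probe sets; nothing particular to the list is read from these counts. Mt2, a metallothionein gene that zinc and glucocorticoids induce, was at 12.49, 12.54 and 12.68 in control replicates 1, 9 and 11. It was at 12.14, 12.31 and 12.40 in zinc diet replicates 3, 7 and 10. Its difference was -0.29 ± 0.098 (SE, limma adjusted p = 0.73). Cebpd, a transcription factor gene, gave -0.49 ± 0.21 (SE) and was lower in all 3 zinc diet mice, with control replicate 1 alone at 5.94 and the others at or below 5.35. Without control replicate 1 the Cebpd difference was -0.27. Nfkbia, the inhibitor of NF-kappa-B, gave -0.46 ± 0.22 (SE) and was lowest in zinc diet replicate 10 (9.65). It was -0.22 without that mouse and -0.18 with the Nfkbia probe sets averaged.

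Of the genes that were higher in zinc diet mice, none passed either p in limma. Arrdc3, an arrestin-domain gene, gave 0.25 ± 0.12 (SE). Klf9, a Kruppel-like factor gene directly induced by the receptor, was at 13.19 to 13.27 in control mice and at 13.31 to 13.41 in zinc diet mice (0.11 ± 0.071 SE). Cebpb gave 0.11 ± 0.10 (SE). With probe sets averaged per gene, the difference was 0.205 for Klf9 and 0.037 for Cebpb. Klf9, Arrdc3 and Glul, the glutamine synthetase gene, shared the ends of the Sgk1 order, with zinc diet replicate 7 highest and control replicate 9 lowest. Mertk, Rhob, Sult1a1 and Gpd1 were highest in control replicate 11 and zinc diet replicate 10, as Fkbp5 was. These 3 and 4 of 29 genes, chosen after their values were seen, compare with 4.43% and 7.80% of all probe sets tested.

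No gene that handles the receptor or its hormone passed the test. Of 11 tested receptor chaperone genes of 14, 7 were higher and 4 lower (median 0.05). In limma, 0 passed an adjusted or unadjusted p of 0.05, against 0% and 6.38% of all probe sets tested. Hspa8, a constitutive HSP70 gene, gave 0.14 ± 0.090 (SE), Hsp90aa1 0.06 ± 0.075 and Hspa1a 0.13 ± 0.16. Ppp5c, a phosphatase of the receptor complex, gave -0.11 ± 0.077 (SE). Stub1 and Fkbp4, the co-chaperone that competes with FKBP5, gave -0.03 ± 0.066 and -0.01 ± 0.095. With the Fkbp4 probe sets averaged, the Fkbp4 difference was -0.141. Of 12 tested coregulator genes of 14, 10 were higher and 2 lower (median 0.068), again with 0 past either p in limma. Ncoa3 (0.16 ± 0.092 SE), Ppargc1a (0.15 ± 0.13) and Nrip1 (0.09 ± 0.080) were higher, and Ncoa1 (-0.11 ± 0.097) and Smarca4 (-0.04 ± 0.066) lower. Only 2 of 6 hormone metabolism and transport genes were tested, also with 0 past either p in limma. Abcb1a, the efflux pump that limits entry of the hormone into the brain, gave 0.17 ± 0.093 (SE), and Hsd11b1, which regenerates active hormone, gave -0.14 ± 0.13.

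Of 6 tested stress peptide and receptor genes of 10, 4 were higher and 2 lower in zinc diet mice, and 0 passed an adjusted p of 0.05 in limma. At an unadjusted p under 0.05 there were 2 of the 6, Crh and Oxtr, against 6.38% of all probe sets tested. With so few genes, nothing particular to the list is read from this count. Crh, the corticotropin-releasing hormone gene, was at 9.50, 8.79 and 9.12 in control replicates 1, 9 and 11 and at 9.62, 9.60 and 9.49 in zinc diet replicates 3, 7 and 10. The diets overlapped through control replicate 1, and the difference was 0.43 ± 0.17 (SE, limma unadjusted p = 0.043, adjusted p = 0.78). It was 0.26 without control replicate 9. Oxtr, the oxytocin receptor gene, gave -0.27 ± 0.11 (SE, limma unadjusted p = 0.043, adjusted p = 0.78), and Crhbp, which encodes the CRH-binding protein, gave -0.38 ± 0.19 (SE), or -0.22 without zinc diet replicate 7. Crhr1 and Crhr2 gave 0.09 ± 0.11 and 0.06 ± 0.11 (SE). Avp, the vasopressin precursor gene, was at 10.96, 4.38 and 5.63 in control replicates 1, 9 and 11. In zinc diet replicates 3, 7 and 10 it was at 9.84, 9.14 and 4.725, and its difference was 0.91 ± 1.98 (SE). Avp is known for its abundance in hypothalamic neurons and was named after its values were seen. Its high mice, control replicate 1 and zinc diet replicates 3 and 7, were also the highest for Crh and Sgk1. For Crh, zinc diet replicate 10 lay close to them. The part of hypothalamic RNA in the Crh and Sgk1 values was not tested.

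**Figure D5:**
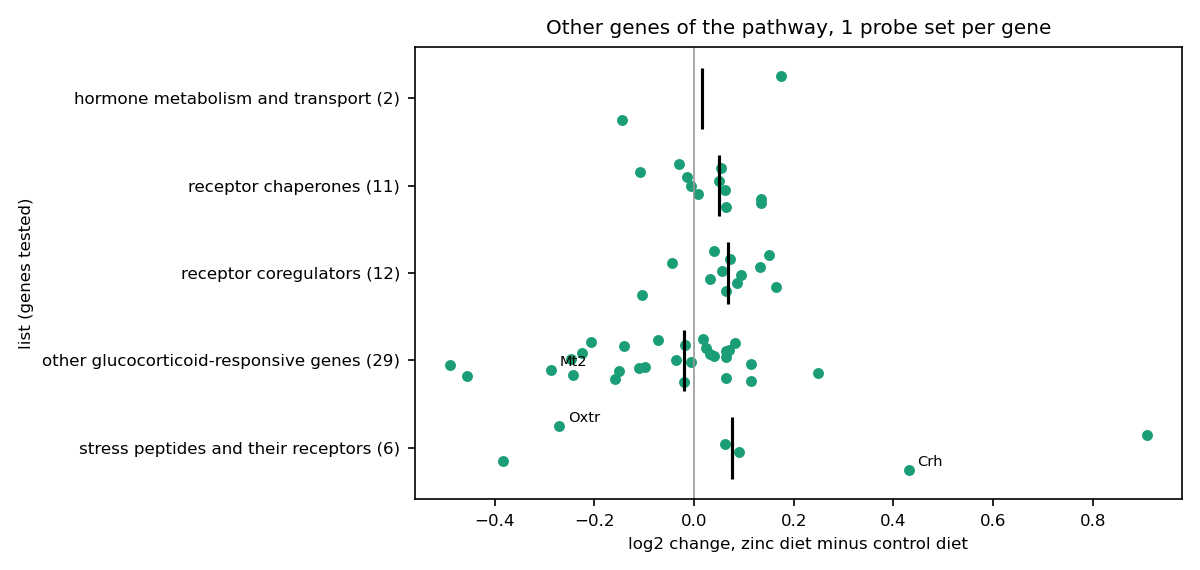
Log2 change (zinc diet minus control diet, x axis) of each tested gene of 5 pathway lists (y axis, with the number tested), 1 probe set per gene. Vertical bars are list medians, and names mark genes with an unadjusted p under 0.05 in limma. The medians lie between -0.02 and 0.077, and the point at 0.91 is Avp.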

How the data were processed

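Each mouse's amygdala RNA (500 ng, biotin-labelled from the 3′ end, per the labels' protocols) was read on 1 Affymetrix Mouse430_2 array. The authors deposited 1 table of probe set values, found here to be on a log2 scale and used without further normalisation. The tools listed per the submitters' processing notes are R 2.15.1 and GCRMA 2.28.0; what each did and its options are not given in the sources used here. Background adjustment of this kind can compress or stretch differences among dim probe sets, and detection calls were not used here.

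After 64 control probe sets were removed, 22877 of 45101 had a mean of at least 4 across the 6 arrays and entered limma 3.58.1 (R 4.3.3), with diet as its single term. The moderated test was two-sided, with Benjamini-Hochberg adjustment over everything tested and a threshold of 0.05. Where a gene had several probe sets, lists used the one whose mean was highest. Intervals are 95% intervals. Correlations were tested by exact permutation over mice. The fit was tested on simulated data. All 24 member probe sets had an Entrez number that gave the same symbol in RefSeq. With 3 mice per diet, the number of arrays limits the precision, and the replicate numbers pair no mice.

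Members and lists were chosen with earlier results of these data known. The genes named were all members, up to 3 per direction and pathway list with the smallest p, the 5 most like Fkbp5, and markers. The rule for separate mice was set after seeing the values. Settings changed 1 at a time were the filter (none, or 6), the scaling (quantile or median), a floor at 4, the variance model (trend and robust), weights per array, how probe sets were combined into genes, and which mouse was left out. Of 3 blood markers none was tested. Median log2 changes of the astrocyte (8), microglia (7), endothelial and pericyte (8) and hippocampal (2) markers tested were -0.029, 0.0023, 0.12 and 0.031; those of the neuronal (5), amygdala (7), myelin (9), choroid plexus (4) and striatal (8) markers were -0.014, 0.33, 0.44, -0.98 and 1.2.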

Additional observations from a re-analysis of the deposited data

How the results depend on the processing

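The 18 member probe sets had 249 values over 15 alternatives; 225 kept their sign and 0 passed an adjusted p of 0.05, the lowest being 0.42. The 24 listed genes named had 354 such values, of which 348 kept their sign and 0 passed. Signs turned with array weights for Tsc22d3 1425557_x_at (0.051), Ddit4 (0.013) and Fkbp4 (0.011), with median centring for Tsc22d3 1425557_x_at (0.00), and with probe sets averaged per gene for Zbtb16 (-0.071). The cause was not tested.

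With 1 mouse left out, the ranges that crossed 0 were -0.116 to 0.001 for Nr3c2, -0.139 to 0.111 for Fkbp5, -0.242 to 0.131 for Ddit4 and -0.065 to 0.111 for Cdkn1a 1424638_at. They were -0.014 to 0.226, -0.065 to 0.149 and -0.091 to 0.11 for Tsc22d3 1420772_a_at, 1425281_a_at and 1425557_x_at, and -0.054 to 0.157, -0.204 to 0.08 and -0.374 to 0.005 for Zbtb16 1419874_x_at, 1439163_at and 1427638_at. Hspa1a ran from -0.013 to 0.23, Fkbp4 from -0.067 to 0.053, Crhr1 from -0.008 to 0.183 and Crhr2 from -0.012 to 0.179. Other ranges kept their sign but had an end that differed from the value with all mice by a factor over 1.5. They were 0.011 to 0.165 and 0.007 to 0.245 for Nr3c1 1421867_at and 1457635_s_at, and 0.011 to 0.295 for Sgk1. For Errfi1 1416129_at and 1419816_s_at they were 0.032 to 0.093 and 0.058 to 0.239. Those of Plin4 and Cdkn1a 1421679_a_at were -0.252 to -0.028 and 0.01 to 0.139. Cebpd ran from -0.647 to -0.265, Nfkbia from -0.646 to -0.221, Crh from 0.257 to 0.612 and Crhbp from -0.557 to -0.222. Hsd11b1 (-0.258 to -0.023), Hspa8 (0.091 to 0.215), Hsp90aa1 (0.031 to 0.107), Stub1 (-0.046 to -0.019), Ncoa3 (0.101 to 0.217), Ppargc1a (0.084 to 0.268), Ncoa1 (-0.181 to -0.051), Arrdc3 (0.153 to 0.32) and Cebpb (0.063 to 0.201) also passed that factor. Ranges within the factor still moved, such as 0.14 to 0.224 for Nr3c1 1460303_at, -0.346 to -0.214 for Mt2 and -0.371 to -0.202 for Oxtr.

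Over all probe sets, the count past an adjusted p of 0.05 in limma was 1 with 1 probe set per gene or probe sets averaged per gene, 2 with a mean of at least 6 and 3 with trend and robust eBayes, and 0 otherwise. The count past an unadjusted p of 0.05 was 937 with 1 probe set per gene, 927 with probe sets averaged per gene (both test fewer features), 2345 with array weights, 2429 with no filter (more features tested), and 853 to 2241 with 1 mouse left out. Of the members, 1 passed an unadjusted p of 0.05 with 1 probe set per gene, array weights, a mean of at least 6, no filter or trend and robust eBayes, and 0 to 1 with 1 mouse left out; apart from the setting with no filter and that without control replicate 11, it was Nr3c1 1460303_at. Member probe sets without overlap between diets numbered 0 with probe sets averaged per gene, 2 with no filter and 1 to 4 with 1 mouse left out. The median r of responsive genes was 0.047 in the main setting, over the 10 pairs of 5 genes for which r is given. It was 0.164 with probe sets averaged per gene, -0.016 with quantile normalization and -0.161 to 0.317 with 1 mouse left out. No paired analysis was possible because the diets share no replicate number.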
